A study of Mus musculus with 51 samples.

Results

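The genes described here are 10 members of the AP-1 and immediate early group: the Fos family (Fos, Fosb, Fosl1 and Fosl2), the Jun family (Jun, Junb and Jund), the zinc finger factor Egr1, and the orphan nuclear receptors Nr4a1 and Nr4a2. They were chosen by name, and every probe set that the array annotation gives to a single member was taken, which made 19 of 45101 probe sets and 10 of 18193 named genes. Fos, Fosb, Junb, Egr1 and Nr4a1 had 1 probe set each, Fosl1, Fosl2, Jun and Jund had 2 each, and Nr4a2 had 6.

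RNA from 51 mouse cell samples, in 17 groups of 3, was measured on Affymetrix Mouse Genome 430 2.0 arrays to ask how HMGN variants affect transcription. HMGN proteins are small chromatin proteins that attach to the nucleosome core and loosen its packing. Primary mouse embryonic fibroblasts (MEFs) of strain C57BL/6 carried an HMGN1 knock out, an HMGN3 knock out or an HMGN5 knock out, and each knock out had a WT group of its own. SV40-transformed MEFs, an established fibroblast line, overexpressed (OE) HMGN1, HMGN2, HMGN3a, HMGN5, HMGN5SE, HMGN1_N2swap or HMGN1_N3swap, with an empty vector group as the control. MIN6 cells, a mouse insulinoma line used as a model of the pancreatic beta cell, overexpressed HMGN1 or HMGN3a, again with an empty vector group. The labels give all samples the same protocol, knock outs included: a retrovirus with the construct, puromycin at 1 µg/ml for 7 days, and 24 h without selection before RNA collection in DMEM with serum. It may apply to the overexpression samples alone, since the knock out and WT labels name no construct. Whether the primary MEFs were infected and selected is therefore not clear. The SV40 MEF and MIN6 cells were infected with polybrene present. No stimulus of the immediate early genes is named. Infected cells were collected as pools and not as clones, and the submitters state that about double the usual amount of HMGN protein was reached. The labels do not expand SE or swap, give no age, and do not say whether the 3 samples of a group came from separate cultures, so p-values measure only the spread between these samples.

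Levels are log2 values of the deposited RMA intensities, in which 1 unit is a doubling, and they were compared only within a cell type because the 3 cell types were on different scales (primary MEF arrays had median linear intensities of 5.47 to 5.93, MIN6 arrays of 55.5 to 57.6 and SV40 MEF arrays of 18.7 to 19.6). Median within-group SDs of all genes lay between 0.0660 and 0.126 on the log2 scale, and 0 pairs of arrays held identical values. Hmgn1 probe sets were lower in HMGN1 knock out than in HMGN1 WT arrays (log2 changes −0.88, −0.67 and −0.89), and Hmgn3 probe sets were lower in HMGN3 knock out than in HMGN3 WT arrays (−1.46 and −1.30). The single Hmgn5 probe set read 5.59 to 5.84 in the arrays labelled HMGN5 knock out, against 4.80 to 5.21 in HMGN5 WT arrays, so it went against that label, and whether it lies in the deleted part of the gene is not stated. In SV40 MEFs labelled HMGN1 OE these 3 Hmgn1 probe sets differed from empty vector by −0.01, −0.01 and −0.08, so the arrays did not show the construct's own RNA. The remaining Hmgn1 probe set lay under the filter for low values in every cell type and was left out. With HMGN3a in SV40 MEFs the Hmgn3 probe sets were at −0.02 and −0.23 and did not pass, and in MIN6 cells they were at 0.26 and 0.23 with HMGN3a and passed, while the Hmgn1 probe sets with HMGN1 were at −0.03, −0.02 and −0.05. In SV40 MEFs labelled HMGN5 OE the Hmgn5 probe set read 7.59 to 7.64, against 8.47 to 8.69 with empty vector (−0.93 ± 0.08, adjusted p over all probe sets = 1.12e-08), so it went against that label as well, and with HMGN5SE it was at −0.05. The 3 Hmgn1 probe sets passed as higher on the arrays labelled HMGN5 OE (0.45, 0.37 and 0.44). Both Hmgn3 probe sets passed as higher with HMGN2 (0.39 and 0.29), HMGN1_N2swap (0.43 and 0.38) and HMGN1_N3swap (0.52 and 0.35). A single Hmgn1 probe set passed as higher with HMGN2 (0.18), HMGN1_N2swap (0.14) and HMGN1_N3swap (0.17). No probe set was annotated to Hmgn2 alone, so the HMGN2 label was not checked. Fibroblast markers were above the filter for low values described next in primary MEFs (11 of 11) and in SV40 MEFs (10 of 11, without Lum). In MIN6 cells 3 of 11 fibroblast markers passed it, while 9 of 12 beta cell markers did.

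AP-1 is a dimer of a Jun protein with a Fos or another Jun protein, held together by leucine zippers, and it binds DNA at AP-1 sites. Many of its genes are immediate early genes, which serum, growth factors and stress switch on within minutes through MAP kinases, serum response factor and CREB, without new protein synthesis. In fibroblasts AP-1 takes part in entry into the cell cycle and in control of matrix and protease genes, and in beta cells glucose and cyclic AMP induce several members. HMGN1 has been linked to histone H3 phosphorylation at immediate early genes of mouse fibroblasts.

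A gene was tested in a cell type where its highest group mean reached a filter level, set at the 40th percentile of the group means there, and its brightest probe set stood for it. For Nr4a2 the brightest probe set was a different one in each cell type. All 10 members were tested in primary MEFs. Fosb, a Fos family protein with a long activating tail, stayed under the filter in SV40 MEFs, and Fosb and Fosl1 did so in MIN6 cells, which left 9 and 8 members tested there. A change is the log2 difference between 2 group means in a limma fit over all groups of the cell type, given with its SE, and it counts as passed at an adjusted p below 0.05 (two-sided, Benjamini-Hochberg over all genes tested). In bulk RNA, fewer cells of a type and less RNA per cell cannot be told apart.

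In SV40 MEFs with HMGN1, 5 of the 9 tested members were lower and 0 were higher than with empty vector: Jun, Fosl2, Fosl1, Nr4a1 and Jund. Of all 13461 genes tested in that comparison 29.4% passed, and 12.1% of all genes tested passed as lower. The median change was −0.26 over the 9 members and −0.00 over all genes. Jun, the main partner of Fos proteins in AP-1, moved most.

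Jun read 7.91, 7.80 and 7.82 on the HMGN1 arrays, against 9.06, 9.03 and 9.07 on the empty vector arrays. Every HMGN1 array lay more than 1 log2 unit under every empty vector array, a change of −1.21 ± 0.12 (limma adjusted p = 9.72e-08), or 0.432 of the empty vector level. The other Jun probe set fell by 1.11 ± 0.09 (adjusted p over all probe sets = 4.46e-09), with 6.66, 7.07 and 6.84 against 7.97, 7.97 and 7.96. Fosl2, which encodes Fra-2, read 6.33, 6.21 and 6.23 with HMGN1 and 6.85, 6.94 and 6.84 with empty vector. The groups were apart by −0.62 ± 0.08 (adjusted p = 7.37e-06). Fosl1, which encodes Fra-1, read 8.66, 8.84 and 8.63 with HMGN1 and 9.25, 9.25 and 9.29 with empty vector, with no overlap and adjusted p = 6.95e-06. Fra-1 and Fra-2 lack the activating tail of Fos.

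Nr4a1, a nuclear receptor also called Nur77, read 6.22, 6.34 and 6.26 with HMGN1, against 6.70, 6.92 and 6.79 with empty vector. Its change was −0.53 ± 0.07 (adjusted p = 4.15e-06). Jund, the Jun protein that is present in resting cells, fell least, with 10.18, 10.05 and 10.18 against 10.39, 10.34 and 10.46 (−0.26 ± 0.07, adjusted p = 0.0107). Its call was lost without HMGN1 replicate 2 (−0.22, adjusted p = 0.0568), and its dimmer probe set was at −0.12 (adjusted p = 0.501). Fos, the founding partner of Jun, was at 0.18 ± 0.10 (adjusted p = 0.177), and Egr1, Junb and Nr4a2 were within 0.06 of empty vector on their brightest probe sets. Of the 5 other Nr4a2 probe sets 2 passed as lower with HMGN1 (−0.38 and −0.30, adjusted p over all probe sets = 0.0448 and 0.0481).

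**Figure D1:**
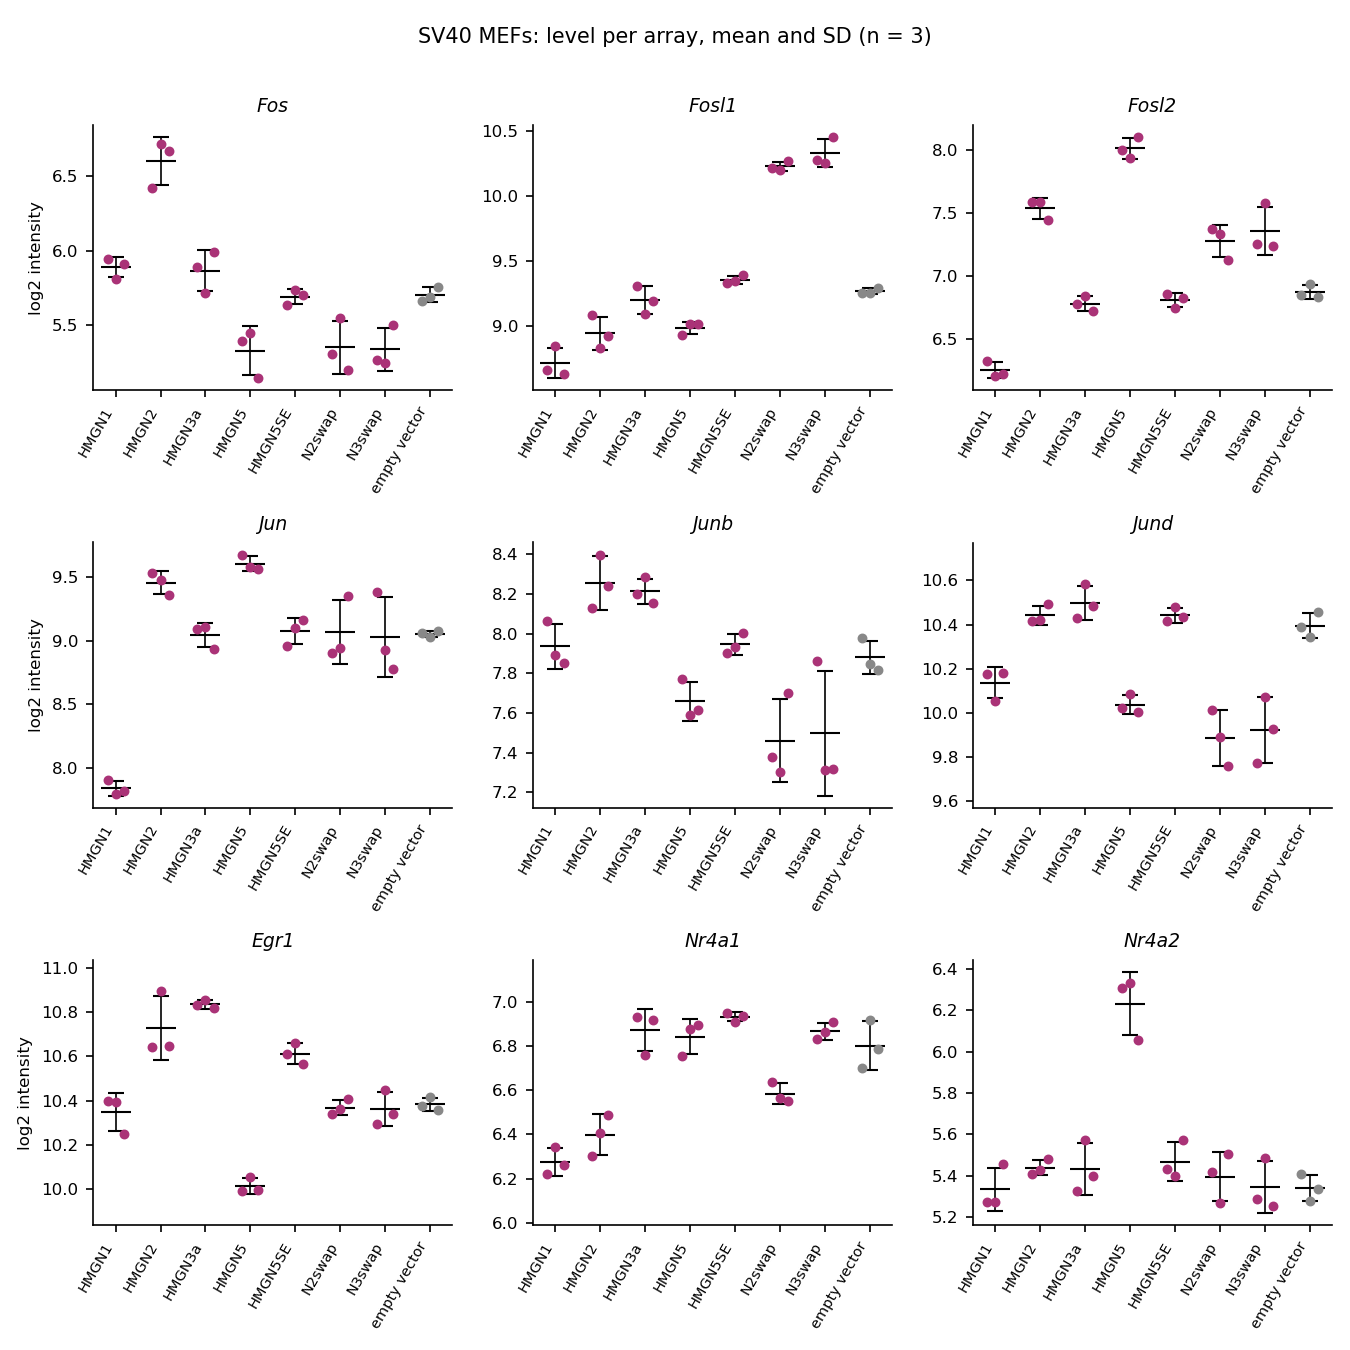
Log2 level of the 9 members tested in SV40 MEFs, 1 panel per gene, with 1 point per array, the mean and SD of 3 arrays as bars, the 7 construct groups first and the empty vector group last. Jun lies near 7.84 with HMGN1 and near 9.05 with empty vector, and Fosl1 lies above 10 with both swap constructs alone.

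Among the members lower with HMGN1, promoters were read for all but Fosl1, and no motif searched stood in all of them. Sequences of the 250 bases before the start were read from RefSeq (build GRCm38.p6) for 8 of the 10 members. They are printed for Jun and Fosl2, which were lower with HMGN1 and higher with HMGN2 and HMGN5, and for Fos and Junb, which were higher with HMGN2 and lower with both swap constructs. They run 5′ to 3′ on the gene's own strand, and capitals mark an AP-1-like site (TGACATCA) in Jun and the core of the CREB site (TGACG) in Fos and Junb. Jun lies at chr4:95052223-95052472 on the minus strand, Fosl2 at chr5:32136222-32136471 on the plus strand, Fos at chr12:85473640-85473889 on the plus strand and Junb at chr8:84978749-84978998 on the minus strand.
Jun: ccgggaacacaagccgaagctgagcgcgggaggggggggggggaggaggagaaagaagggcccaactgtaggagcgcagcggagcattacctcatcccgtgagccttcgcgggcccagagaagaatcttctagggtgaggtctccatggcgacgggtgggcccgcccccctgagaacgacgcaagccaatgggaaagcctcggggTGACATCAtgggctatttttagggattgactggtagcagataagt
Fosl2: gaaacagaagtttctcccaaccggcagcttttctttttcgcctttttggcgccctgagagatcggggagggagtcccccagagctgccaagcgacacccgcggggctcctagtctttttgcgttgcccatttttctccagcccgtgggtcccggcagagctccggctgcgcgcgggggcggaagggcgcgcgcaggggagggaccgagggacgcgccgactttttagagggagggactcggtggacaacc
Fos: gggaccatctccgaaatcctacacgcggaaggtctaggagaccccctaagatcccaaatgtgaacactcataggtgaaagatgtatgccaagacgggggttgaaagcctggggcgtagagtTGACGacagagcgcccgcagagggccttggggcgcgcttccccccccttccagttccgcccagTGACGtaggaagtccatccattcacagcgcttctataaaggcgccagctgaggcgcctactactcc
Junb: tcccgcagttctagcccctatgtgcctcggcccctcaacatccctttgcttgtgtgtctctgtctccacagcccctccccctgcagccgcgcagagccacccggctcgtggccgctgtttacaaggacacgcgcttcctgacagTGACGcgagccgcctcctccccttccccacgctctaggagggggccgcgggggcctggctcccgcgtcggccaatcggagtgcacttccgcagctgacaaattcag

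Each motif was searched on both strands, and none was found there in Fosl2. The AP-1-like site of Jun starts 45 bases before its start, and TGACATCA or its reverse complement TGATGTCA stood in 2.93% of 32851 promoters of the same length. The core stood 129 and 66 bases before the start of Fos and 106 bases before that of Junb, and 17.8% of the promoters held at least 1. It was not particular to this pair. The windows not printed here held 4 cores in Nr4a1, 4 in Nr4a2 and 1 in Fosb, while Jund held none. The consensus AP-1 site (TGACTCA or TGAGTCA, in 4.46% of promoters), the full cyclic AMP response element (TGACGTCA, 1.55%, which contains the core) and the CArG box of serum response factor (1.47%) were not among the letters of any of the 8 windows. Bases further upstream were not searched, so a motif missing from a window can still lie beyond it. A match is a description of letters and not a binding site.

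Of 26 other immediate early genes, 13 were lower and 1 was higher with HMGN1, at a median of −0.25. Of all genes tested 12.1% passed as lower and 17.4% as higher. Trib1, a pseudokinase that restrains MAP kinase signalling, changed by −0.98 ± 0.11 (adjusted p = 5.69e-07). Ccn1, a secreted matrix protein, changed by −0.76 ± 0.07 (adjusted p = 1.71e-08), Dusp2, a MAP kinase phosphatase, by −0.83 ± 0.16 and Plk2, a polo-like kinase, by −0.65 ± 0.07. Of 17 tested AP-1 target genes 6 were lower and 0 higher, at a median of −0.17. Among them were Ptgs2, the inducible cyclooxygenase (−1.49 ± 0.10, adjusted p = 9.59e-11), Ccnd1, cyclin D1 (−0.58 ± 0.08), and Hbegf, an EGF receptor ligand (−0.55 ± 0.08). Among 13 dimer partners 1 was higher and 2 were lower, led by Maf at −1.15 ± 0.11 (adjusted p = 1.28e-07), a large Maf factor.

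HMGN2 in SV40 MEFs went with higher Fos, Fosl2, Jun, Junb and Egr1 and lower Nr4a1 and Fosl1. These 7 of 9 members passed, where 44.4% of all genes did, and the median change was 0.35 over the members and −0.06 over all genes. The empty vector arrays are the same 3 for every SV40 construct, so the comparisons are not independent of each other. Fos read 6.42, 6.72 and 6.67 with HMGN2, against 5.66, 5.69 and 5.76 with empty vector. That was a change of 0.90 ± 0.10 (adjusted p = 2.49e-07), or 1.86-fold, and no array of either group reached the other.

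Fosl2 read 7.59, 7.59 and 7.45 with HMGN2, against 6.85, 6.94 and 6.84 with empty vector (0.67 ± 0.08, adjusted p = 1.03e-06). Its other probe set was at 0.39 ± 0.14 (adjusted p over all probe sets = 0.0249). Egr1, a growth factor-induced zinc finger activator, read 10.64, 10.89 and 10.65 with HMGN2, against 10.37, 10.42 and 10.36 with empty vector (0.35 ± 0.07, adjusted p = 0.000194). The 3 genes had no overlap between the groups. Jun and Junb, a Jun protein that can restrain Jun, also passed as higher. Jun read 9.53, 9.47 and 9.36 with HMGN2, against 9.06, 9.03 and 9.07 with empty vector (0.40 ± 0.12, adjusted p = 0.00876), while its other probe set was at 0.19 and did not pass (adjusted p over all probe sets = 0.0840). Junb read 8.13, 8.40 and 8.24 with HMGN2, against 7.98, 7.85 and 7.82 with empty vector (0.37 ± 0.12, adjusted p = 0.0143).

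Both Jun family calls were lost with the difference between the 3′ and 5′ Actb control probe sets, a measure of RNA integrity, as a covariate (Jun 0.24, adjusted p = 0.0635; Junb 0.19, adjusted p = 0.102). That of Junb was also lost without HMGN2 replicate 2 (0.30, adjusted p = 0.0777). Nr4a1 read 6.30, 6.41 and 6.49 with HMGN2, under the 6.70 to 6.92 of empty vector (−0.40 ± 0.07, adjusted p = 4.70e-05). Fosl1 fell by 0.32 ± 0.07 (adjusted p = 0.00110) on its brighter probe set, while the dimmer one was at −0.30 (adjusted p over all probe sets = 0.150). Jund and Nr4a2 did not pass on their brightest probe sets. Another Nr4a2 probe set passed as higher with HMGN2 (0.26, adjusted p over all probe sets = 0.0142). Of 10 tested fibroblast markers 7 were higher and 0 lower with HMGN2, at a median of 1.17, where 18.8% of all genes passed as higher. Xist read 6.16 to 6.55 on HMGN2 arrays, against 4.70 to 4.91 on empty vector arrays. The summed linear intensity of the fibroblast markers was 21974 to 23742 on HMGN2 arrays, against 14449.9 to 14931 on empty vector arrays, and the part of Xist and of these markers in the members' changes was not tested.

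The other immediate early genes moved both ways with HMGN2, 13 of 26 higher and 7 lower at a median of 0.20. Of all genes tested 18.8% passed as higher and 25.6% as lower. Rhob, a small GTPase, was at 1.00 ± 0.08, Egr2, a relative of Egr1, at 0.97 ± 0.13 and Dusp1, a phosphatase of MAP kinases, at 0.80 ± 0.08, while Dusp2 was at −0.93 ± 0.16. Of 15 MAP kinase pathway and feedback genes 5 were higher and 4 lower, with Spry1, a feedback inhibitor of receptor tyrosine kinases, at 1.98 ± 0.10 (adjusted p = 1.45e-12). Ptgs2 was at 0.93 ± 0.10 among the AP-1 targets, of which 5 of 17 were higher and 5 lower.

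On the brightest probe sets, the SV40 MEF arrays labelled HMGN5 had the highest Fosl2, Jun and Nr4a2 levels of the 8 SV40 groups. Fos, Fosl1, Jund and Egr1 were lower than with empty vector. The Hmgn5 probe set went against the label of these arrays. On the other probe sets HMGN5 was not highest for Jun (0.47, against 0.61 with HMGN1_N2swap) or Fosl2 (0.24, against 0.39 with HMGN2). In all 7 of 9 members passed, 3 as higher and 4 as lower, beside 41.5% of all genes (20.7% as higher and 20.8% as lower). Fosl2 read between 7.94 and 8.10 on the 3 HMGN5 arrays, against 6.85, 6.94 and 6.84 with empty vector. It changed by 1.14 ± 0.08 (adjusted p = 1.36e-10), or 2.21-fold, while its dimmer probe set was at 0.24 ± 0.14 and did not pass (adjusted p over all probe sets = 0.183).

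Jun read 9.67, 9.57 and 9.56 with HMGN5, against 9.06, 9.03 and 9.07 with empty vector (0.55 ± 0.12, adjusted p = 0.000620), and its other probe set was at 0.47 ± 0.09. Nr4a2, a nuclear receptor also called Nurr1, read 6.31, 6.33 and 6.06 with HMGN5, against 5.41, 5.28 and 5.34 with empty vector. On this probe set HMGN5 was the single SV40 construct with which Nr4a2 passed (0.89 ± 0.09, adjusted p = 2.17e-08). Of its 6 probe sets 3 passed as higher (0.89, 1.06 and 1.40), and the other 3 were at 0.22, 0.12 and −0.30.

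Fos read 5.40, 5.45 and 5.15 with HMGN5, under the 5.66 to 5.76 of empty vector (−0.37 ± 0.10, adjusted p = 0.00428). Egr1 read 9.99, 10.05 and 9.99 with HMGN5 and at least 10.36 on every empty vector array (−0.37 ± 0.07, adjusted p = 7.32e-05). These 2 genes, higher with HMGN2, were thus lower on the arrays labelled HMGN5. Jund fell by 0.36 ± 0.07 on its brighter probe set (adjusted p = 0.000377), while the dimmer one was at 0.13 (adjusted p = 0.434). Fosl1 fell by 0.28 ± 0.07 (adjusted p = 0.00344), with its dimmer probe set at −0.34 (adjusted p over all probe sets = 0.116), and Junb was at −0.22 (adjusted p = 0.146). Fibroblast markers were higher for 7 of 10 and lower for 1 with HMGN5, at a median of 1.01, with summed intensities of 26882 to 27555 against 14449.9 to 14931 with empty vector, and their part was not tested.

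A list of 8 genes held SRF (serum response factor), its partners at the CArG box, Creb1 and Crebbp. With HMGN5 6 of the 8 were higher and 0 lower, at a median of 0.43. Of all genes tested 20.7% passed as higher and 20.8% as lower. Elk3, a ternary complex factor, was at 1.17 ± 0.06 (adjusted p = 8.29e-13) and Mrtfa, an actin-sensing SRF coactivator, at 0.93 ± 0.10. Of the other immediate early genes 8 were higher and 10 lower, from Plk2 at 1.19 ± 0.07 and Klf2, a Krüppel-like factor, at 1.05 ± 0.09 down to Ier3, an early gene linked to cell survival, at −0.99 ± 0.07 and Dusp2 at −1.64 ± 0.16. AP-1 targets were split 6 to 6 of 17, and Ereg, an EGF receptor ligand, stood at 4.25 ± 0.08 over an empty vector mean of 2.14 that lay under the filter level of 3.63.

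HMGN5SE and HMGN3a left the members close to empty vector. With HMGN5SE 0 of 9 members passed in limma, beside 0.0149% of all genes. An unadjusted p below 0.05 was reached by 1 member and by 704 of all 13461 genes tested. Egr1 came closest, with 10.61, 10.66 and 10.57 against 10.37, 10.42 and 10.36 (0.23 ± 0.07, adjusted p = 0.581). For Jun the 95% interval of the change with HMGN5SE ran from −0.23 to 0.27 and for Fosl2 from −0.23 to 0.11, so the changes seen with HMGN5 lay outside both.

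With HMGN3a 1 of 9 members passed, Egr1, which was 1 of only 4 genes of 13461 to do so (0.0297%). Egr1 read 10.83, 10.86 and 10.82 with HMGN3a, against 10.37, 10.42 and 10.36 with empty vector. The change was 0.45 ± 0.07 (adjusted p = 0.00454), but it did not pass without empty vector replicate 3 (0.44, adjusted p = 0.0554) or with the 2 compared groups alone in the fit (adjusted p = 0.116). Junb was at 0.33 ± 0.12 with groups that did not overlap, and did not pass (adjusted p = 0.352).

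Set directly against the arrays labelled HMGN5, HMGN5SE gave 7 of 9 members as different, beside 42% of all genes. Fosl2 (−1.20 ± 0.08, adjusted p = 5.34e-11), Nr4a2 (−0.76 ± 0.09, adjusted p = 2.28e-07) and Jun (−0.53 ± 0.12, adjusted p = 0.000874) were lower with HMGN5SE than with HMGN5. The other Fosl2 probe set was at −0.34 and did not pass (adjusted p over all probe sets = 0.0582), the other Jun probe set passed at −0.34, and 4 of the 6 Nr4a2 probe sets passed as lower. Egr1 (0.60 ± 0.07, adjusted p = 1.01e-07), Jund (0.41 ± 0.07), Fosl1 (0.37 ± 0.07) and Fos (0.36 ± 0.10) were higher. The Fos call was lost without HMGN5 replicate 3 (0.27, adjusted p = 0.0510).

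Both swap constructs went with higher Fosl1 and Fosl2 and lower Jund, Junb and Fos than empty vector. With HMGN1_N2swap 6 of 9 members passed (37.1% of all genes) and with HMGN1_N3swap 5 of 9 (37.4%). Fosl1 read 10.22, 10.20 and 10.27 with HMGN1_N2swap and 10.28, 10.25 and 10.45 with HMGN1_N3swap, against 9.25, 9.25 and 9.29 with empty vector. All 6 swap arrays lay above all other 18 SV40 arrays, whose highest, with HMGN5SE, read 9.39. The changes were 0.96 ± 0.07 (adjusted p = 1.78e-09) and 1.06 ± 0.07 (adjusted p = 4.23e-10), and the second Fosl1 probe set passed at 0.62 and 0.64.

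Fosl2 read 7.37, 7.33 and 7.13 with HMGN1_N2swap and 7.26, 7.58 and 7.24 with HMGN1_N3swap, above the 6.84 to 6.94 of empty vector (0.41 ± 0.08 and 0.48 ± 0.08). Its dimmer probe set was at −0.19 and 0.03 and did not pass with either. Jund read 10.01, 9.89 and 9.76 with HMGN1_N2swap and 9.77, 10.07 and 9.93 with HMGN1_N3swap, under the 10.34 to 10.46 of empty vector (−0.51 ± 0.07, adjusted p = 1.20e-05, and −0.47 ± 0.07, adjusted p = 3.05e-05). The dimmer Jund probe set was at −0.19 and −0.14 and did not pass with either. On the brighter probe sets the groups of both genes did not overlap.

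Junb read 7.38, 7.30 and 7.70 with HMGN1_N2swap, against 7.98, 7.85 and 7.82 with empty vector (−0.42 ± 0.12, adjusted p = 0.00827). With HMGN1_N3swap it read 7.86, 7.31 and 7.32, so 1 array lay inside the empty vector range (−0.38 ± 0.12, adjusted p = 0.0152). Fos was at −0.35 ± 0.10 and −0.37 ± 0.10 and passed with both, and Nr4a1 fell by 0.22 ± 0.07 with HMGN1_N2swap (adjusted p = 0.0142). The Nr4a1 call was lost without empty vector replicate 2 (−0.16). That of Junb was lost without HMGN1_N2swap replicate 2 (−0.34, adjusted p = 0.0520) and, for HMGN1_N3swap, without empty vector replicate 1 (−0.33), HMGN1_N3swap replicate 2 (−0.29) or HMGN1_N3swap replicate 3 (−0.29). Jun was at 0.01 and −0.02 on its brighter probe set, with swap arrays from 8.78 to 9.38, while its other probe set was higher by 0.61 ± 0.09 (adjusted p over all probe sets = 1.48e-05) and 0.47 ± 0.09 (adjusted p = 0.000261). The 2 Jun probe sets thus disagreed on the swap arrays.

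The Actb 3′ minus 5′ difference was 0.394 to 0.789 on the 6 swap arrays, against 0.00720 to 0.393 on the other 18 SV40 arrays. With it as a covariate Junb was at −0.00 with each swap construct (adjusted p = 0.985 and 0.994), Fos at −0.34 and −0.35 (adjusted p = 0.103 and 0.0711), Fosl2 at 0.16 with HMGN1_N2swap (adjusted p = 0.226) and Jun at 0.38 with HMGN1_N2swap (adjusted p = 0.0404). Xist read 6.88 to 7.78 on the HMGN1_N2swap arrays and 6.89 to 7.19 on the HMGN1_N3swap arrays, against 4.70 to 4.91 with empty vector, and its part was not tested.

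Against native HMGN1, HMGN1_N2swap and HMGN1_N3swap each gave 7 of 9 members as different, beside 46.1% and 50.9% of all genes. Fosl1 was higher by 1.52 ± 0.07 (adjusted p = 2.54e-13) with HMGN1_N2swap and by 1.62 ± 0.07 (adjusted p = 7.92e-14) with HMGN1_N3swap. Jun was higher by 1.22 ± 0.12 and 1.19 ± 0.12, and Fosl2 by 1.02 ± 0.08 and 1.10 ± 0.08. The other Fosl2 probe set was at 0.27 with HMGN1_N2swap and did not pass (adjusted p over all probe sets = 0.121), and at 0.49 with HMGN1_N3swap, where it passed (adjusted p = 0.00609). Fos (−0.54 and −0.55), Junb (−0.48 and −0.44) and Jund (−0.25 and −0.21) were lower. The Jund calls were lost without HMGN1_N2swap replicate 3 (−0.19) and, for HMGN1_N3swap, without HMGN1 replicate 1 (−0.19), HMGN1 replicate 3 (−0.19) or HMGN1_N3swap replicate 1 (−0.14), and those of Junb were lost with the Actb difference as a covariate (−0.09 and −0.08). The low Jun level of HMGN1 was therefore not seen with either swap construct.

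Against HMGN2, HMGN1_N2swap gave 8 of 9 members as different (50.2% of all genes), and 5 with the Actb difference as a covariate. Fos was at −1.25 ± 0.10 (adjusted p = 1.61e-09), Junb at −0.79 ± 0.12 and Jund at −0.55 ± 0.07, while Fosl1 was higher by 1.29 ± 0.07 (adjusted p = 7.02e-12). Jun was at −0.39 ± 0.12 (adjusted p = 0.00945), but at 0.14 with the Actb difference as a covariate and at 0.42 on its other probe set. Its call was also lost without HMGN1_N2swap replicate 1 (−0.31, adjusted p = 0.0574).

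**Figure D2:**
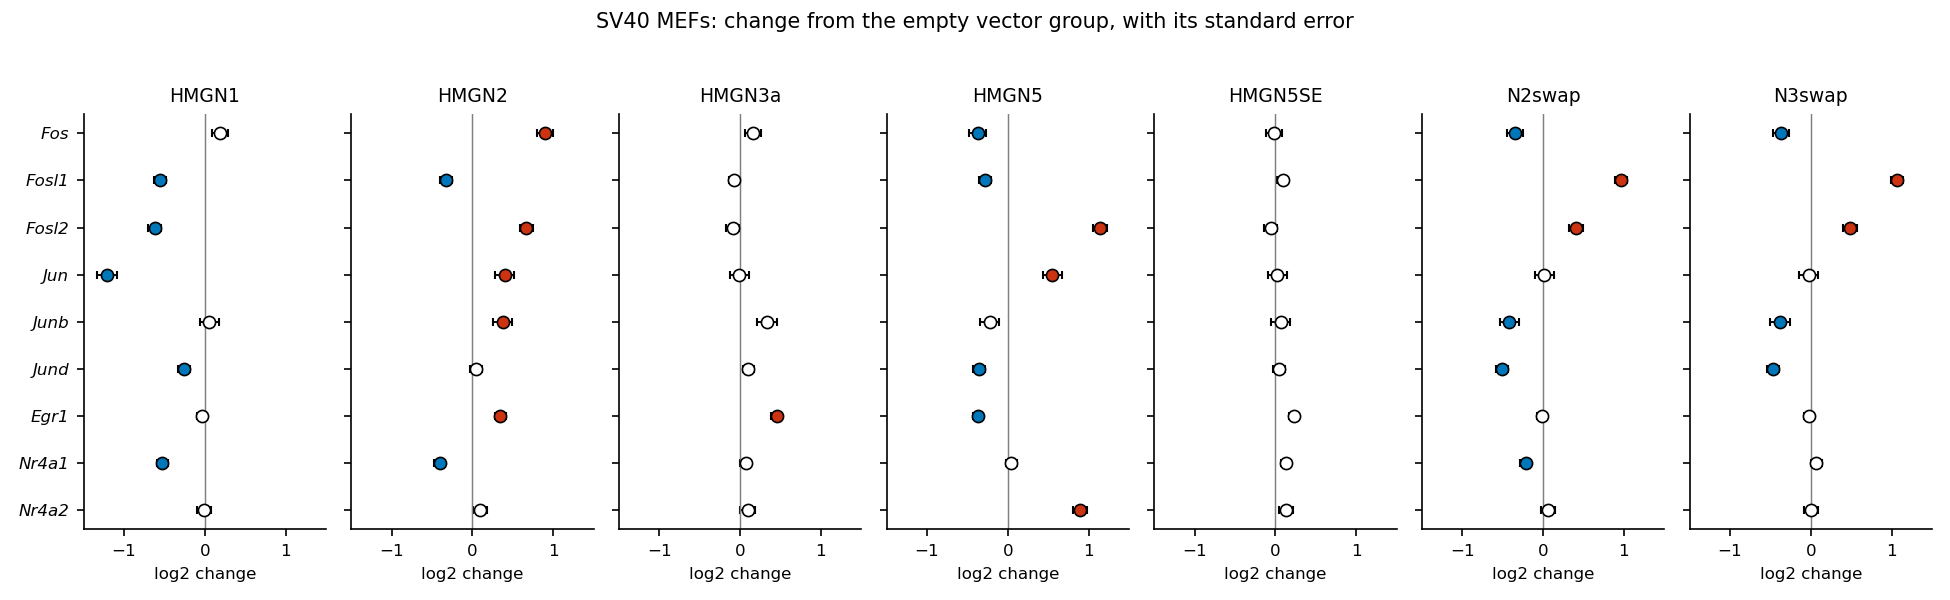
Log2 change of the 9 tested members with each of 7 constructs against empty vector in SV40 MEFs, 1 panel per construct, as limma estimates with their SE; filled red marks passed as higher, filled blue marks passed as lower and open marks did not pass. Jun runs from −1.21 with HMGN1 to 0.55 with HMGN5 and Fosl2 from −0.62 to 1.14, while the HMGN5SE panel holds open marks alone.

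Among the swap constructs' other early genes, 6 of 26 were higher and 10 lower with HMGN1_N2swap, and 6 were higher and 8 lower with HMGN1_N3swap. Of all genes tested 17.7% passed as higher and 19.3% as lower with HMGN1_N2swap, and 17.4% and 20% with HMGN1_N3swap. Btg2, an antiproliferative early gene, was at −0.74 ± 0.12 and −1.32 ± 0.12, and Klf4, a Krüppel-like factor, at 0.65 ± 0.12 and 0.63 ± 0.12. Dusp4, a nuclear MAP kinase phosphatase, was at −1.32 ± 0.14 and −1.46 ± 0.14. Ptgs2 was at 0.76 with both (±0.10 each), where native HMGN1 gave −1.49.

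Where a member had more than 1 probe set above the filter, the probe sets were set side by side in each comparison. Of 107 such cases 48 had 0 probe sets that passed, 20 had all passing in 1 direction, 33 had some that passed and 6 had calls in opposite directions. Of those 6, 5 were Nr4a2 in comparisons with a swap construct. With HMGN1_N2swap against empty vector 2 Nr4a2 probe sets passed as higher (0.38 and 0.57) and 2 as lower (−0.40 and −0.75), while the brightest was at 0.06, so no direction can be given for Nr4a2 there. For Fos, Junb, Egr1 and Nr4a1 no such check was possible, since each has 1 probe set alone.

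**Figure D3:**
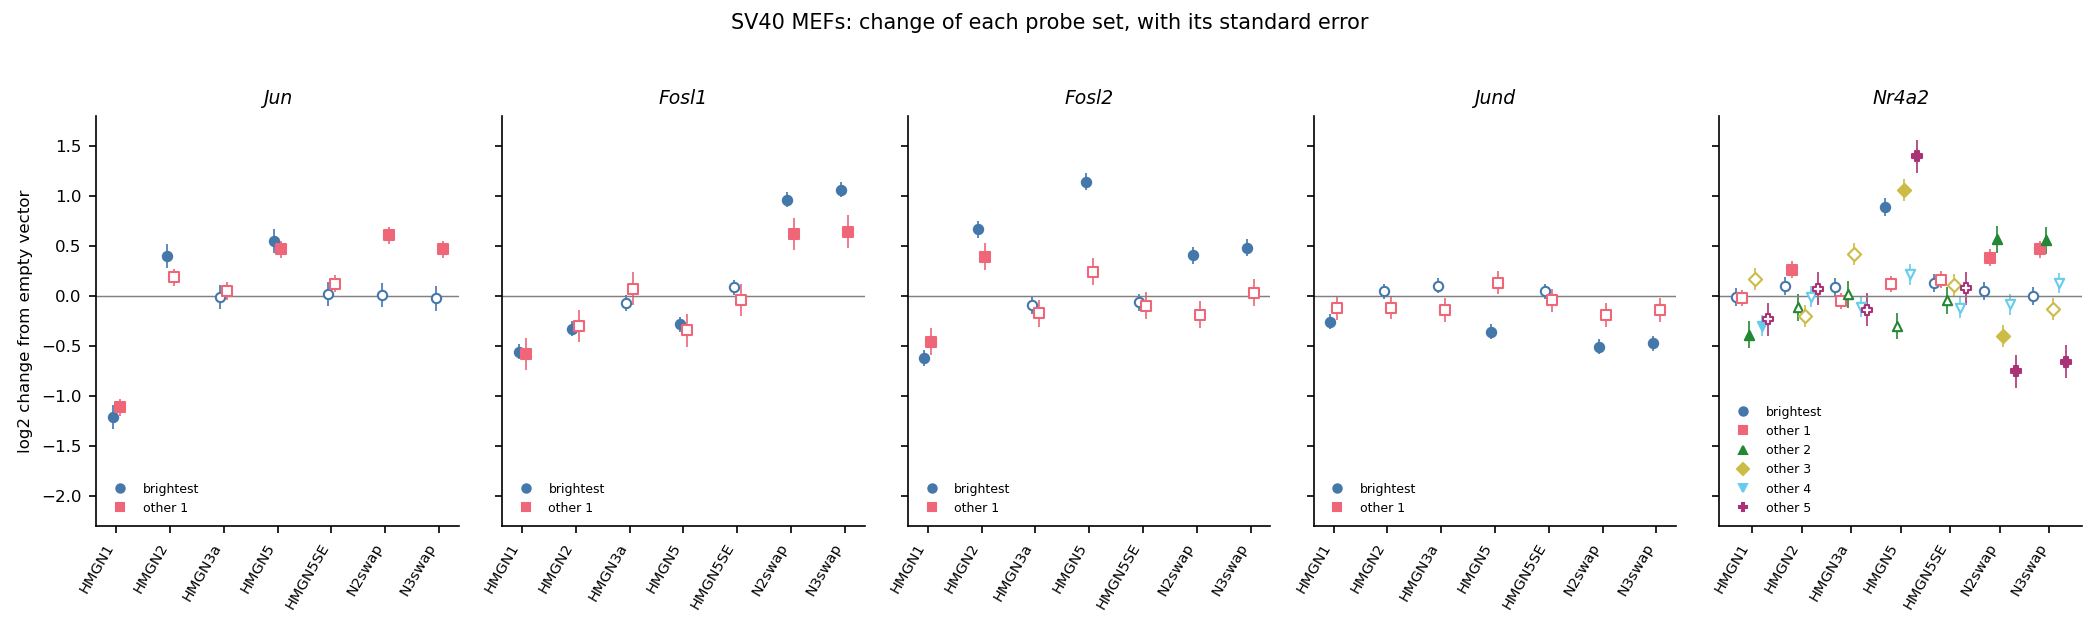
Log2 change, with its SE, of each probe set of Jun, Fosl1, Fosl2, Jund and Nr4a2 with 7 constructs against empty vector in SV40 MEFs, the brightest probe set as a circle; filled marks passed and open marks did not, at an adjusted p below 0.05 over all probe sets. Both Jun probe sets lie under −1 with HMGN1 but part with HMGN1_N2swap (0.01 and 0.61), and Nr4a2 probe sets spread from −0.30 to 1.40 with HMGN5.

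In MIN6 cells HMGN3a went with a clear rise of Egr1 and smaller rises of Fos, Jun, Junb and Jund. With HMGN3a 6 of the 8 tested members passed, 5 as higher and 1, Nr4a2, as lower, beside 34.1% of all genes tested (14.6% of all genes tested passed as higher). Egr1 read 10.48, 10.80 and 10.55 with HMGN3a, against 9.17, 9.02 and 8.98 with empty vector. The lowest HMGN3a array lay more than 1 log2 unit above the highest empty vector array, a change of 1.56 ± 0.08 (adjusted p = 4.70e-07), or 2.94-fold.

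Fos read 8.66, 9.06 and 8.73 with HMGN3a, against 8.44, 8.38 and 8.29 with empty vector (0.44 ± 0.09, adjusted p = 0.00436). Jun read 9.24, 9.33 and 9.21 with HMGN3a, against 8.73, 8.97 and 8.91 with empty vector (0.39 ± 0.07, adjusted p = 0.00162). Neither gene's groups overlapped, though the other Jun probe set was at 0.09 and did not pass. Junb (7.70, 7.96 and 7.65 against 7.68, 7.21 and 7.32) and Jund (11.68, 11.71 and 11.44 against 11.44, 11.20 and 11.36) passed at 0.36 ± 0.12 (adjusted p = 0.0361) and 0.28 ± 0.08 (adjusted p = 0.0285). The groups of Junb and Jund overlapped, and both calls were lost without empty vector replicate 2 (0.27 and 0.21), empty vector replicate 3 (0.32 and 0.29), HMGN3a replicate 1 (0.40 and 0.24) or HMGN3a replicate 2 (0.27 and 0.22). The count of members that passed was 4 to 7 when 1 array was left out.

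Nr4a2 read 7.45, 7.40 and 7.34 with HMGN3a, against 7.81, 7.61 and 7.65 with empty vector (−0.29 ± 0.08, adjusted p = 0.0129). Another Nr4a2 probe set passed at −0.41 (adjusted p over all probe sets = 0.0117), and the other 4 were at −0.22, −0.22, −0.0245 and −0.000319 and did not pass. Nr4a1 stood the other way at 0.27 ± 0.10 and did not pass (adjusted p = 0.0594), though it passed without HMGN3a replicate 3 (0.36, adjusted p = 0.0220), and Fosl2 was at 0.19 (adjusted p = 0.157). Fosb (4.69 to 4.94 over the 3 group means) and Fosl1 (4.80 to 4.95) stayed under the filter level of 5.14.

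Of 15 MAP kinase pathway and feedback genes 7 were lower and 0 higher with HMGN3a in MIN6 cells, at a median of −0.17. Of all genes tested 19.5% passed as lower and 14.6% as higher. Dusp4 was at −0.90 ± 0.08 (adjusted p = 1.21e-05), Dusp6, a phosphatase of ERK, at −0.80 ± 0.12, Spred2, an inhibitor of Ras signalling, at −0.73 ± 0.11 and Spry4, a Sprouty inhibitor, at −0.44 ± 0.13. Of 23 other immediate early genes 8 were higher and 4 lower, with Ier2, an early nuclear protein, at 0.62 ± 0.10 and Plk3, a polo-like kinase, at −1.03 ± 0.07. Maf was at 2.92 ± 0.08 (adjusted p = 8.44e-09). Markers moved too: 2 of 3 tested islet hormone genes of other endocrine cells were lower and 1 was higher (summed intensity 2361 to 2684 against 4928 to 5169), and 3 of 4 epithelial markers were higher (6014 to 6505 against 4275 to 4459). Their part in the members' changes was not tested.

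HMGN1 in MIN6 cells gave 0 of 8 members in limma, beside 1.16% of all genes. An unadjusted p below 0.05 was reached by 2 members and by 2246 of all 13169 genes tested. Egr1 read 9.38 on all 3 HMGN1 arrays, against 9.17, 9.02 and 8.98 with empty vector (0.32 ± 0.08, adjusted p = 0.107). Jun read 9.16, 9.13 and 9.13 with HMGN1, against 8.73, 8.97 and 8.91 with empty vector (0.27 ± 0.07, adjusted p = 0.104). Neither pair of groups overlapped, and neither gene passed. The 95% interval for Jun ran from 0.12 to 0.42, so a fall of the size seen in SV40 MEFs lay outside it.

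**Figure D4:**
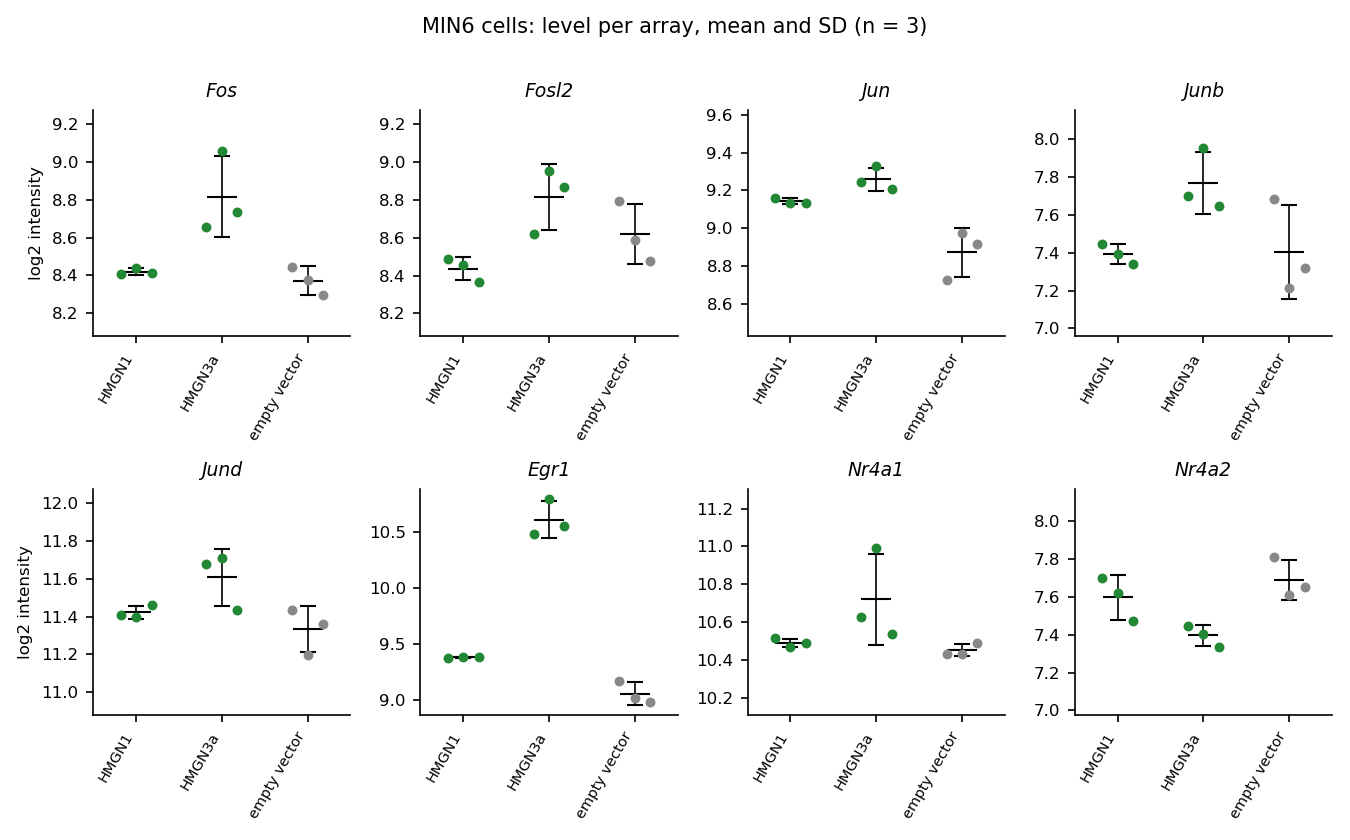
Log2 level of the 8 members tested in MIN6 cells, with 1 point per array, the mean and SD of 3 arrays as bars, and groups in the order HMGN1, HMGN3a, empty vector. Egr1 stands near 10.6 with HMGN3a and near 9.05 with empty vector, and the other 7 genes differ by less than 0.5.

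The effect of the same construct was compared between the lines by a limma interaction test, MIN6 effect minus SV40 MEF effect. For HMGN1 6 of 9 members passed, all as higher in MIN6 cells, beside 20.7% of all genes. The difference was 1.48 ± 0.15 for Jun (adjusted p = 3.52e-08), 0.57 ± 0.11 for Nr4a1 (adjusted p = 0.000627) and 0.44 ± 0.13 for Fosl2 (adjusted p = 0.0151), where the last was lost without MIN6 empty vector replicate 3 (0.36, adjusted p = 0.0524). Fosl1 also passed, but it lay under the filter level in MIN6 cells. For HMGN3a 1 of 9 passed, Egr1, at 1.11 ± 0.10 (adjusted p = 2.68e-09), beside 19.8% of all genes.

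In primary MEFs labelled HMGN1, HMGN3 or HMGN5 knock out the members stayed close to their own WT groups. With HMGN1 knock out 0 of 10 passed in limma, beside 0.439% of all genes. On the arrays labelled HMGN5 knock out 0 of 10 did, beside 0.0732%. An unadjusted p below 0.05 was reached by 2 members with HMGN1 knock out and by 0 with HMGN5 knock out. Of all 13669 genes tested 2121 and 764 reached it. With HMGN3 knock out 1 of 10 passed, Nr4a2, beside 0.585% of all genes.

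Nr4a2 read 5.43, 5.23 and 5.39 in HMGN3 knock out arrays, against 6.05, 5.93 and 5.83 in HMGN3 WT arrays. The groups did not overlap (−0.58 ± 0.10, adjusted p = 0.00732). Over all probe sets, 2 of its 6 passed as lower (−0.58 and −0.51), 2 were at −0.49 and −0.28, and 2 at −0.11 and 0.03. The call was lost without knock out replicate 2 (−0.52, adjusted p = 0.0593) or without WT replicate 1 (−0.53, adjusted p = 0.0518). The difference from the HMGN1 knock out effect on Nr4a2 was 0.51 ± 0.13 and did not pass (adjusted p = 0.118). Fosl1 was at −0.25 ± 0.10 with HMGN3 knock out, with 6.73, 6.81 and 6.74 against 7.12, 6.98 and 6.92, and did not pass (adjusted p = 0.470).

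With HMGN1 knock out Fosb read 2.43, 2.19 and 1.94, against 1.75, 1.87 and 1.45 in HMGN1 WT arrays. It was at 0.50 ± 0.14 (adjusted p = 0.106), and only the HMGN1 knock out mean exceeded the filter level of 1.99. Nr4a1 read 7.26, 7.00 and 7.03 in HMGN1 knock out arrays, against 6.85, 6.79 and 6.82 in HMGN1 WT arrays (0.28 ± 0.09, adjusted p = 0.152). Neither gene's groups overlapped. Jun was the member that changed most with HMGN1 in SV40 MEFs. With HMGN1 knock out it was at −0.08 ± 0.07 (95% interval −0.24 to 0.07), with 7.42, 7.68 and 7.64 against 7.67, 7.63 and 7.68. Egr1 read 8.65, 8.42 and 8.55 in HMGN1 knock out arrays, against 8.94, 8.50 and 8.76 in HMGN1 WT arrays, which overlapped (−0.19 ± 0.17, adjusted p = 0.618).

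The knock out effects were also set against each other, and 0 of 10 members passed in limma in any of the 3 differences. Of all genes 0.505% passed for HMGN1 minus HMGN3, 0.161% for HMGN1 minus HMGN5 and 0.424% for HMGN3 minus HMGN5. In the same order, 3, 4 and 3 members had an unadjusted p below 0.05. Of all 13669 genes tested 1669, 1591 and 1048 did.

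On the arrays labelled HMGN5 knock out Egr1 was the most variable member, at 8.79, 9.74 and 9.31 against 9.13, 9.36 and 9.27 in HMGN5 WT arrays. Xist differed among replicates of HMGN1 knock out (3.14 to 8.61) and of HMGN5 knock out (2.60 to 8.72), so those groups mixed arrays with and without it. Summed macrophage and leukocyte marker intensities were 388 to 1843 with HMGN5 knock out (WT 575 to 1055). They were 362 to 506 with HMGN1 knock out (WT 507 to 543) and 1035 to 1635 with HMGN3 knock out (WT 1181 to 1285). In each knock out comparison 0 of 10 tested markers passed, and their part was not tested.

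**Figure D5:**
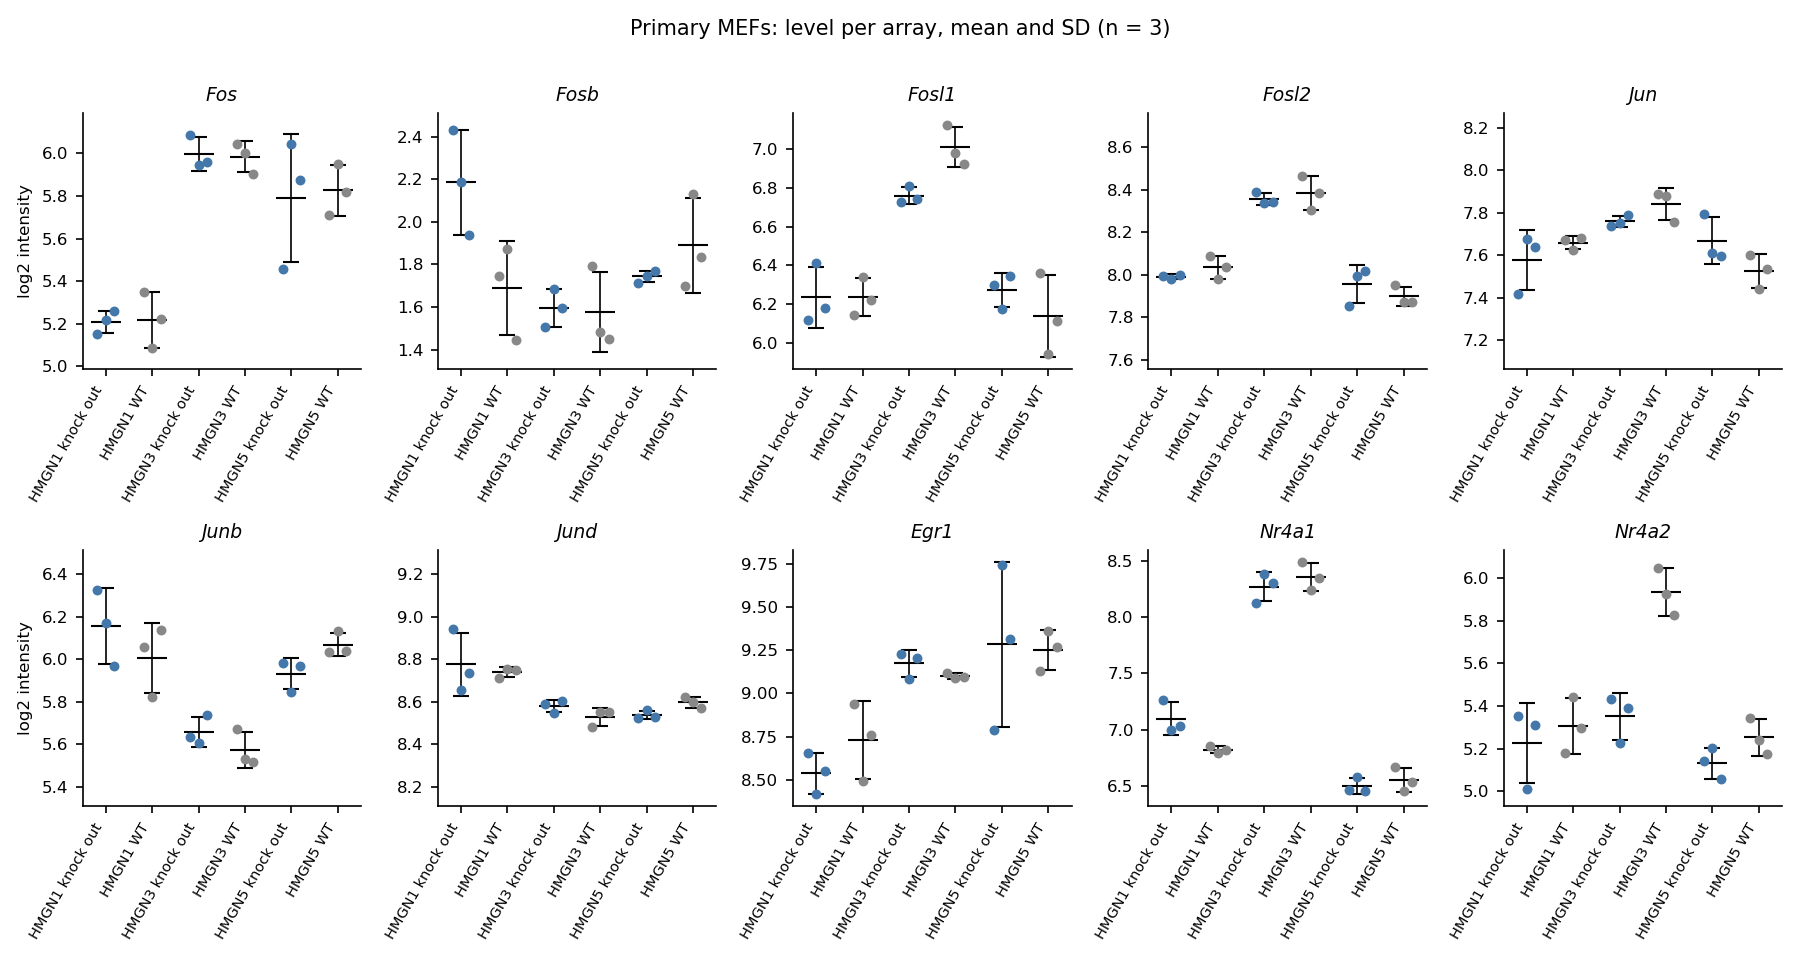
Log2 level of the 10 members in primary MEFs, with 1 point per array and the mean and SD of 3 arrays as bars, each knock out left of its own WT group. Nr4a1 lies above 8 in both HMGN3 groups and at or under 7.26 elsewhere, and Nr4a2 is the single gene whose knock out groups include one that passed, HMGN3.

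HMGN3 WT differed from both other WT groups in more members than any knock out did from its own WT. HMGN3 WT against HMGN1 WT gave 7 of 10 members (31.5% of all genes), and HMGN5 WT against HMGN3 WT gave 6 of 10 (17.2%). Nr4a1 read 8.49, 8.24 and 8.35 in HMGN3 WT arrays, against 6.85, 6.79 and 6.82 in HMGN1 WT arrays (1.54 ± 0.09, adjusted p = 7.12e-09). In HMGN5 WT arrays it read 6.66, 6.45 and 6.53, which was −1.81 ± 0.09 from HMGN3 WT (adjusted p = 6.20e-09). Fosl1 was at 0.77 ± 0.10 in HMGN3 WT over HMGN1 WT and at −0.87 ± 0.10 in HMGN5 WT over HMGN3 WT. Nr4a2 was at 0.63 ± 0.10 and −0.68 ± 0.10, and Junb stood the other way at −0.43 ± 0.09 and 0.49 ± 0.09. When a score of male cells from Y-linked RNA entered the fit as a covariate, the Junb call in HMGN3 WT against HMGN1 WT was lost (−0.43, adjusted p = 0.0547).

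HMGN5 WT against HMGN1 WT gave 1 of 10, Fos (0.61 ± 0.11, adjusted p = 0.00261; 11.7% of all genes passed). It read 5.71, 5.95 and 5.82, against 5.35, 5.08 and 5.22, and was at 0.29 (adjusted p = 0.382) with that score in the fit. Xist read 2.65 to 2.73 in HMGN3 WT and 2.40 to 2.78 in HMGN5 WT arrays, against 8.56 to 8.63 in HMGN1 WT arrays. Macrophage and leukocyte markers were higher for 5 of 10 and lower for 0 in HMGN3 WT over HMGN1 WT, at a median of 1.18. Of all genes tested 11.1% passed as higher there. The summed intensities of the markers were 1181 to 1285 in HMGN3 WT and 575 to 1055 in HMGN5 WT, against 507 to 543 in HMGN1 WT. The part of these markers was not tested.

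Across the 24 SV40 arrays the members did not move as 1 block. The highest Pearson correlations of log2 level between members were 0.80 for Fosl2 with Jun, 0.74 for Fos with Junb and 0.73 for Junb with Jund, and the lowest was −0.67 for Fosl1 with Junb. The points share 8 groups of 3 arrays and 1 normalization, so these are descriptions. The genes of all those tested whose levels were most like a member's were Ccn1 for Jun (0.94), Ier2 for Egr1 (0.91), Adamts4, a matrix protease, for Fos (0.95), and Armcx2, Acta2 (smooth muscle actin) and Fn1 (fibronectin) for Fosl2 (0.98, 0.97 and 0.96). Ccdc86 was most like Fosl1 (0.97), Mtch1, a mitochondrial membrane protein, most like Junb (0.96), Rell1 most like Jund (0.94), Fyn, a Src family kinase, most like Nr4a1 (0.84) and Stac2 most like Nr4a2 (0.95).

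Groups were ranked within SV40 MEFs by their mean on the brightest probe set of a gene. Jun was highest with HMGN5 (9.60 ± 0.06, SD, n = 3), next with HMGN2 (9.46 ± 0.09), and lowest with HMGN1 (7.84 ± 0.06). Between them HMGN5SE, HMGN1_N2swap, empty vector, HMGN3a and HMGN1_N3swap overlapped, with means from 9.03 to 9.07. The order depended on the probe set. On the other Jun probe set the changes from empty vector were 0.61 with HMGN1_N2swap, 0.47 with HMGN1_N3swap, 0.47 with HMGN5 and 0.19 with HMGN2. Fosl2 had the same top and bottom groups, HMGN5 (8.02 ± 0.08) and HMGN1 (6.26 ± 0.06), and neither overlapped its neighbour. On the other Fosl2 probe set the change with HMGN2 (0.39) was above that with HMGN5 (0.24). Fosl1 was highest with the 2 swap constructs, which overlapped each other (10.33 ± 0.11 and 10.23 ± 0.03), and lowest with HMGN1 (8.71 ± 0.12), which overlapped HMGN2 (8.94 ± 0.13).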

How the data were processed

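The deposited values are linear intensities of 45101 probe sets, made by the authors with RMA per the submitters' processing notes, whose version is not given in the sources used here. They were taken to log2 with no pseudocount. The platform annotation gave 1 gene symbol to 34945 probe sets, several to 932 and none to 9160, and 64 control probe sets were left out. All value columns belong to a labelled sample, so 0 were left unused.

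Groups, direct contrasts and differences between effects (24 comparisons) were fitted with limma 3.58.1 in R 4.3.3 (data.table package 1.17.8), with 1 fit per cell type over all its groups, or over both lines for the differences between lines. Tests were two-sided with Benjamini-Hochberg adjustment over 13169 genes for MIN6 cells, 13461 for SV40 MEFs, 14445 for both lines together and 13669 for primary MEFs. The log2 filter level was 5.14 for MIN6 cells, 3.63 for SV40 MEFs and 1.99 for primary MEFs. The number of arrays limits the precision.

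On simulated data with 200 changed genes, genes changed 1.5-fold were called for 82% in the HMGN1 knock out comparison (13669 genes), 93% in the SV40 HMGN1 comparison (13461), 91% in the MIN6 HMGN3a comparison (13169) and 71% in the HMGN1 difference between lines (14445). At 2-fold these shares were 100%, 100%, 96% and 94%, and 3.70%, 3.98%, 2.07% and 4% of all calls were false. The simulated noise was normal and independent between arrays and genes, at each gene's own within-group SD. Differences shared by the arrays of a group, such as those between infected pools, were not simulated, so these shares do not cover them.

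The members and gene lists were chosen with earlier results of these data known. All 10 members were named with every probe set. From each list, up to 4 genes that passed with the largest change and without overlap of the groups could be named, and the genes most like each member were those with the highest Pearson correlation over the 24 SV40 MEF arrays. The alternatives tried were dropping the filter, fitting all probe sets singly, reading a member from its other probe sets, repeating quantile normalization, the Actb difference, the share of male cells from 3 Y-linked genes or the replicate number as a term, only the compared groups, and leaving out each array. Same-numbered arrays of a comparison did not deviate together (correlations of −0.339 to 0.377 over 36 pairs, with every pair over 0.1 in 0 of 12 comparisons), so the numbers were not taken to pair samples. Promoters come from a RefSeq table of build GRCm38.p6, and 2 of the motifs, TGACG and TGACATCA, were added after the sequences were seen. Python 3.11.15 with pandas 2.3.3 and matplotlib 3.10.9 made the figures.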

Additional observations from a re-analysis of the deposited data

Results flagged for a closer look

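Effects of the same construct in MIN6 cells and in SV40 MEFs differed for 6 members with HMGN1 and for 1 with HMGN3a, by a limma interaction test adjusted over all genes. Each value is the MIN6 effect minus the SV40 MEF effect on the log2 scale. For HMGN1 the difference was 1.48 ± 0.15 for Jun (adjusted p = 3.52e-08), 0.59 ± 0.11 for Fosl1 (adjusted p = 0.000183), 0.57 ± 0.11 for Nr4a1 (adjusted p = 0.000627) and 0.44 ± 0.13 for Fosl2 (adjusted p = 0.0151). Egr1 (0.36 ± 0.10, adjusted p = 0.0118) and Jund (0.35 ± 0.11, adjusted p = 0.0241) were also further up in MIN6 cells. On the other probe set Jun was at 1.22 and passed, while Fosl1 was at 0.53 and Fosl2 at 0.47 and did not pass (adjusted p over all probe sets = 0.114 and 0.0677). Fosl1 lay under the filter level in MIN6 cells, and the second Jund probe set gave a difference of −0.03. The Jund difference did not pass without SV40 MEF empty vector replicate 3 (0.32), SV40 MEF HMGN1 replicate 2 (0.31), MIN6 empty vector replicate 2 (0.28) or MIN6 HMGN1 replicate 3 (0.33), and that of Fosl2 not without MIN6 empty vector replicate 3 (0.36). For HMGN3a the difference was 1.11 ± 0.10 for Egr1 (adjusted p = 2.68e-09), where the construct gave 1.56 in MIN6 cells and 0.45 in SV40 MEFs.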

How the results depend on the processing

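Over the 24 comparisons, all 88 calls of a member, and all members that did not pass, kept their side of the threshold without the filter, with every probe set in the fit (the brightest still read for each member) and with the replicate block. The pairing check gave each array its own number as best match in 1 of 12 comparisons. Quantile normalization again kept 87 of the 88 calls and added 5. Where each fit held its compared groups alone, 79 were kept, 9 were lost and 7 added. The Actb difference, fitted in SV40 MEFs and in the differences between lines, kept 55 calls, lost 11, added 4 and reversed 1 (Jun in HMGN1_N2swap against HMGN2, at 0.14). The share of male cells, fitted in primary MEFs, kept 13, lost 2 and added 1. Leaving out 1 array kept 538 called values and lost 32, and 10 values passed that had not. Why these calls moved was not tested.

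The counts of members that passed moved as follows. HMGN3 knock out gave 0 to 1 with 1 array left out (0 without knock out replicate 2 or WT replicate 1). HMGN5 WT against HMGN1 WT gave 0 with the share of male cells, 3 with only the compared groups and 1 to 2 with 1 array left out (2 without replicate 1 of either group). The HMGN1 minus HMGN3 knock out effect gave 0 to 1, with Nr4a2 passing without HMGN1 knock out replicate 2 (0.61, adjusted p = 0.0422). HMGN3a in SV40 MEFs gave 0 with only the compared groups and 0 to 1 with 1 array left out (0 without empty vector replicate 3). With the Actb difference HMGN1_N3swap gave 3 and HMGN1_N2swap against HMGN2 gave 5. The HMGN3a difference between lines gave 2 with every probe set, where a member counts if any of its probe sets passed (Nr4a2 at −0.71), 3 with quantile normalization again, 2 with the Actb difference, 2 with only the compared groups and 1 to 2 with 1 array left out (2 without MIN6 empty vector replicate 1 or any 1 MIN6 HMGN3a array). For the other comparisons, the counts with 1 array left out stayed within 1.5 times the reported count.

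Other probe sets gave the opposite sign in 20 cases, 11 of them for a member that had passed. Nr4a2 was at 0.0330 in HMGN3 knock out, −0.17 in HMGN3 WT against HMGN1 WT, 0.11 in HMGN5 WT against HMGN3 WT, −0.30 with HMGN5, −0.40 and −0.75 with HMGN1_N2swap and −0.66 with HMGN1_N3swap. Against HMGN1 it was at −0.57 and −0.52 for HMGN1_N2swap and −0.31 and −0.42 for HMGN1_N3swap, against HMGN2 at 0.68 for HMGN1_N2swap, and for HMGN5SE against HMGN5 at 0.0431 and 0.26. Jund was at 0.13 with HMGN5, −0.18 in HMGN5SE against HMGN5 and −0.0267 in the HMGN1 difference between lines. Jun was at 0.47 with HMGN1_N3swap and 0.42 in HMGN1_N2swap against HMGN2, and Fosl2 at −0.19 with HMGN1_N2swap. The cause was not tested.

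The precision is limited by the 3 arrays of each group. Fosb in SV40 MEFs, and Fosb and Fosl1 in MIN6 cells, were too dim to test.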
